A study of Mus musculus with 16 samples.

Results

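The ARP2/3 complex subunits were followed in mouse quadriceps, in 8 libraries from animals whose Nampt gene was knocked out only in skeletal muscle (KO) and 8 from wild-type animals (WT), all made from polyadenylated RNA. The set was chosen by the KO against WT difference of Actr3b in these same libraries, together with the symbols of the other subunits. It holds 10 genes of the 45706 in the deposited table: Actr3b, Actr3, Actr2, Arpc1a, Arpc1b, Arpc2, Arpc3, Arpc4, Arpc5 and Arpc5l. All 10 were found once and all 10 passed the low-count filter that left 13792 tested genes. Nampt makes the NAD precursor nicotinamide mononucleotide, and the study asks whether losing NAD in muscle hastens its ageing. The sources used here do not name the promoter that drives the deletion, the age or sex of the mice, or whether each library is a separate animal, so errors and p-values describe the spread between libraries.

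The ARP2/3 complex binds the side of an actin filament and starts a new branch there. ACTR2 and ACTR3 are actin-related proteins that together mimic an actin dimer and seed the daughter filament, while the ARPC subunits hold the complex on the mother filament. The complex is idle until a nucleation-promoting factor of the WASP, WAVE or WASH type switches it on. Several subunits exist as alternative versions: ACTR3 or ACTR3B, ARPC1A or ARPC1B, and ARPC5 or ARPC5L. Human complexes with ARPC1B and ARPC5L nucleate more strongly than those with ARPC1A and ARPC5, and in cultured mouse myofibres ARPC5L has been linked to placing nuclei at the fibre edge and ARPC5 to the layout of the triads.

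The paralogs Actr3b and Actr3 are separate genes whose reads can be told apart, which the comparison of their levels relies on. Their coding sequences aligned over 1254 bases in GENCODE M21 (GRCm38) with 76.3% identity, and the longest stretch without a difference was 20 bases, shorter than the 52-base reads. The following 60 coding bases, 620 to 679 counted from the A of the start codon, surround that stretch in both genes, with the 14 differing bases in capitals. They lie on the plus strand at chr5:25829605-25829664 for Actr3b and on the minus strand at chr1:125405850-125405909 for Actr3.
Actr3b: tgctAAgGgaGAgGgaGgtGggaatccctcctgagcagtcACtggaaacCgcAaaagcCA
Actr3: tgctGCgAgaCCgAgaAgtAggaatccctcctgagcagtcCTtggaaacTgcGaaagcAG
The single-exon window with the most differences spans coding bases 687 to 746 and holds 23 of them, again in capitals, at chr5:25831613-25831672 for Actr3b and chr1:125403505-125403564 for Actr3.
Actr3b: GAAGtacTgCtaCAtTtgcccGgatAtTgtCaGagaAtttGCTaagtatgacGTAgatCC
Actr3: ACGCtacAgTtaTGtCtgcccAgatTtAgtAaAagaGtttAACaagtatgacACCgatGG

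Of the 2421 distinct 52-base windows in the annotated Actr3b transcripts, 0 occurred in a transcript of any other gene. The estimated counts of Actr3b were whole numbers, to within 0.01, in all 16 libraries. For Actr3, 25.5% of 4777 windows occurred elsewhere, mostly in the gene model Gm8822, and its counts were fractional in all 16 libraries. Gm8822 itself held 0.152 CPM (counts scaled to a common library size) in KO and 0.249 CPM in WT on average, so little was assigned to it. Arpc1b shared 23.8% of its windows with other genes, most with Pdap1, a gene on the opposite strand that overlaps it by 931 exonic bases. The sources used here do not state the strand setting of the counting, so reads from those bases cannot be assigned to one gene with certainty. The mean of Pdap1 was 51.9 in KO and 51.0 CPM in WT. The coding sequences of Arpc1b and Arpc1a were 74.1% identical, with a longest identical run of 21 bases, and those of Arpc5l and Arpc5 were 71.3% identical, also with a longest run of 21 bases.

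Totals ran from 16065394 to 51881258 estimated counts per library, and the smallest count of any subunit in any library was 194.0. Nampt ran from 60.4 to 88.7 CPM in KO, against 125.5 to 161.1 CPM in WT, so the targeted gene follows the labels. Skeletal muscle markers were present throughout: 10 of 10 were tested, and their summed level ran from 135419 to 159842 CPM in KO and from 135945 to 165344 CPM in WT. Of these 10 markers 0 passed the edgeR test, beside 0.0435% of all tested genes. Leukocyte markers summed to 89.2 to 210.7 CPM in KO and 87.3 to 234.0 CPM in WT, and Schwann cell and nerve markers to 59.1 to 79.4 CPM in KO and 46.1 to 85.7 CPM in WT. In KO libraries 1, 3, 5 and 8 a score of RNAs without a poly(A) tail, the mean log2 CPM of 9 such RNAs, lay between 4.76 and 5.05. It lay between 3.52 and 4.14 in the other KO libraries and between 3.52 and 4.66 in WT. Of 10 tested RNAs of this kind, 4 reached p under 0.05 before adjustment (edgeR), all higher in KO. Among all tested genes 4.02% were higher in KO at that p.

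Actr3b, the alternative ARP3 subunit (ENSMUSG00000056367, chromosome 5, plus strand, 25759997 to 25850688, protein-coding), had a lowest level of 9.90, a median of 13.1 and a highest of 16.5 CPM in KO, against 16.6, 18.4 and 23.6 CPM in WT. The genotypes did not overlap, but only narrowly: the highest KO library, KO 4, lay 0.0750 CPM under the lowest WT library, WT 7. The lowest KO library was KO 6 and the highest WT library was WT 3, the deepest of the series. Mean levels were 13.1 ± 1.98 in KO and 19.0 ± 2.14 CPM in WT (SD, n = 8 per genotype), a log2 fold change of -0.54 ± 0.09 (standard error). This puts Actr3b in KO at 68.8% of its WT level, with a 95% interval from 60.5% to 78.4%. In bulk RNA, fewer cells of a type that express a gene and less RNA per cell cannot be told apart.

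This difference is a description, because it is what chose the set. Actr3b was singled out as 1 of the 6 genes (0.0435% of those tested, 0.0218% higher and 0.0218% lower in KO) with an adjusted p under 0.05 in this contrast (edgeR quasi-likelihood, Benjamini-Hochberg), where its adjusted p was 0.0464. It stood next to the threshold: the genes just inside were Trp63, Gm16124 and Gm11613 at an adjusted p of 0.0471, and Wfikkn2 lay just outside at 0.0541. Across all tested genes, 0.123% had genotypes that did not overlap, and in 0.0798% every KO library lay below every WT library, against 0.0435% with every KO library above. DESeq2 called 1.29% of the genes it gave an adjusted p and limma-voom 0.0363%. Over 27 alternative fits the Actr3b difference ran from -0.59 (without KO library 4) to -0.48 (without WT library 3) on the log2 scale. These fits reuse libraries that chose Actr3b, so they are no independent support for its size. The adjusted p of Actr3b stayed under 0.05 in 9 of those 27, and in 3 of the 16 that leave out 1 library, namely without KO library 4, KO library 6 or WT library 7. With the score of RNAs without a poly(A) tail as a covariate, the log2 fold change of Actr3b was -0.55 with an adjusted p of 0.0749 (edgeR). Without KO libraries 1, 3, 5 and 8, which leaves fewer libraries, it was -0.56 with an adjusted p of 0.234 (edgeR). Actr3b lay between 11.4 and 14.2 CPM in those libraries and between 9.90 and 16.5 CPM in the other KO libraries, all below WT.

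**Figure D1:**
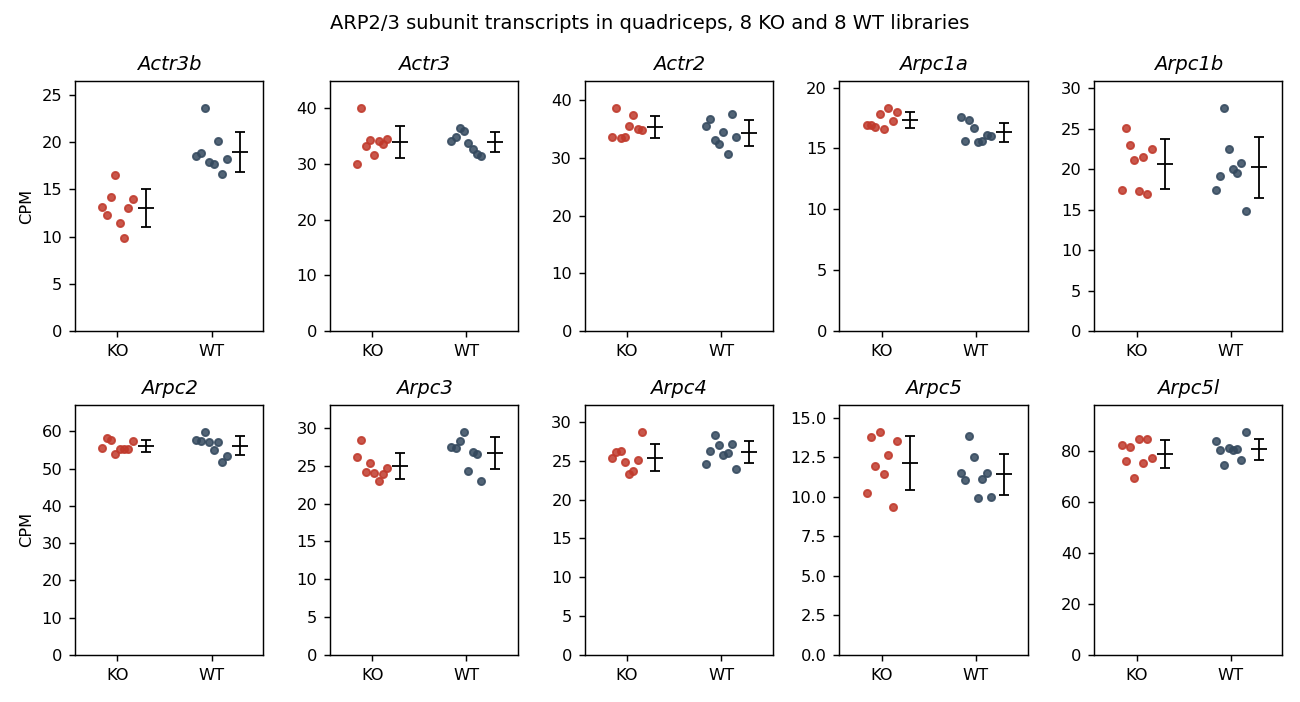
Level in CPM (y axis, from 0) of each of the 10 ARP2/3 subunit transcripts in the 8 KO and 8 WT libraries; each point is 1 library and the bars give the mean and SD. The KO and WT points separate for Actr3b, at means of 13.1 and 19.0 CPM, and overlap for the other 9 subunits.

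Actr3, the common ARP3 subunit that shares its place in the complex with ACTR3B, was set beside it. Its lowest, median and highest levels were 29.9, 33.8 and 40.0 CPM in KO and 31.4, 33.9 and 36.3 CPM in WT. All WT libraries lay within the KO range, whose highest library was KO 2. The log2 fold change was 0.00 ± 0.05 (standard error), with a 95% interval from -0.11 to 0.11. Actr2, the other actin-related protein of the complex, had 33.4, 34.9 and 38.7 CPM in KO and 30.7, 34.0 and 37.6 CPM in WT, again overlapping, with a log2 fold change of 0.04 (standard error 0.05).

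Arpc1a and Arpc1b, the alternative WD-repeat subunits, are neighbours on the plus strand of chromosome 5, at 145083830 to 145108761 and 145114215 to 145130705. Arpc1a had a lowest, median and highest level of 16.6, 17.1 and 18.3 CPM in KO and 15.5, 16.1 and 17.6 CPM in WT. All 8 KO libraries lay above the WT mean, although the ranges overlapped. Its log2 fold change was 0.09 with a 95% interval from 0.01 to 0.17, and it did not pass over all genes (edgeR, adjusted p = 0.476). Arpc1b, the version abundant in blood cells, spread the most of all subunits in WT: 16.9, 21.3 and 25.1 CPM in KO and 14.9, 19.8 and 27.6 CPM in WT. Its coefficient of variation was 14.8% in KO and 18.5% in WT, while that of Arpc1a was 3.69% in KO and 4.98% in WT. The log2 fold change of Arpc1b was 0.02, with a 95% interval from -0.21 to 0.25.

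Arpc2 and Arpc4 form the core that contacts the mother filament. Arpc2 varied the least of the set, with a coefficient of variation of 2.79% in KO and 4.67% in WT. It had 53.9, 55.4 and 58.3 CPM in KO and 51.8, 57.1 and 59.97 CPM in WT, and its log2 fold change was -0.00 (standard error 0.03). Arpc4 had 23.3, 25.2 and 28.8 CPM in KO and 23.9, 26.2 and 28.3 CPM in WT, and its log2 fold change was -0.04 (standard error 0.05). In both genes the KO and WT ranges overlapped. Arpc3, a peripheral subunit, had 22.9, 24.5 and 28.3 CPM in KO and 22.9, 27.1 and 29.5 CPM in WT. Of the KO libraries 7 of 8 lay below the WT mean of Arpc3, and its log2 fold change was -0.10 with a 95% interval from -0.21 to 0.01 (edgeR, adjusted p = 0.593).

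Arpc5l, the ARPC5 version tied to nuclear placement, had the highest CPM of the set at 69.3, 79.1 and 84.6 in KO and 74.4, 80.6 and 87.5 in WT. Arpc5, its counterpart, had the lowest CPM in WT, at 9.36, 12.3 and 14.1 in KO and 9.92, 11.3 and 13.9 in WT. Both overlapped between genotypes, with log2 fold changes of -0.03 (standard error 0.04) for Arpc5l and 0.08 (standard error 0.09) for Arpc5.

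Of the 9 subunits other than Actr3b, 0 passed the test over all genes with edgeR, DESeq2 or limma in any of the 27 alternative fits. Few genes of any kind passed: 0.0435% of all tested genes with edgeR and 0.0363% with limma-voom. With DESeq2 it was 1.29% of the genes given an adjusted p. Before adjustment 1 of the 9 subunits, Arpc1a, reached p under 0.05 (edgeR). Over the alternatives Arpc1a did so in 14 of 27, Arpc3 in 4 of 27 and the other subunits in 0. Among all tested genes 9.57% did, 4.02% higher and 5.55% lower in KO. Their log2 fold changes ran from -0.10 to 0.09 with 5 of 9 above 0, beside 51.8% of all tested genes, and their median was 0.00, the same to 2 decimals as the median of all tested genes. All 9 had 95% intervals within 0.32 of 0 on the log2 scale, which held for 62.6% of all tested genes. The interval of Actr3b lay outside that range on the lower side. These counts come from the contrast that chose Actr3b and are given as a description.

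**Figure D2:**
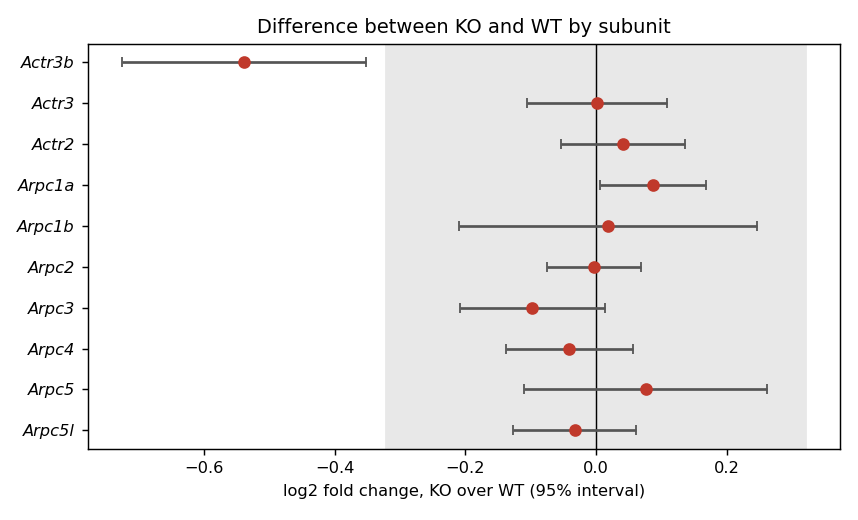
log2 fold change of each subunit, KO over WT (x axis), with its 95% interval from the edgeR fit; the grey band reaches 0.32 on the log2 scale to either side of 0. Actr3b lies at -0.54, outside the band with its whole interval, and the intervals of the other 9 subunits lie inside it.

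Levels were compared between subunits after dividing CPM by the length of each gene's summed exons. On that scale Arpc2 stood highest at 27.6 ± 0.771 CPM per kilobase in KO and 27.6 ± 1.29 in WT (SD, n = 8 per genotype), followed by Arpc5l at 17.5 ± 1.18 in KO and 17.9 ± 0.896 in WT. Arpc4 at 11.0 ± 0.741 in KO and 11.3 ± 0.610 in WT came next, and then Arpc3 at 9.04 ± 0.606 in KO and 9.65 ± 0.766 in WT. Actr3b held 5.38 ± 0.817 CPM per kilobase in KO, the 8th place, and 7.82 ± 0.883 in WT, the 5th place. Actr3 held 7.32 ± 0.630 in KO and 7.30 ± 0.393 in WT, Actr2 held 6.78 ± 0.365 in KO and 6.58 ± 0.434 in WT, and Arpc1a held 6.75 ± 0.249 in KO and 6.36 ± 0.317 in WT. Arpc5 and Arpc1b stood last, Arpc5 at 5.34 ± 0.754 in KO and 5.03 ± 0.569 in WT, and Arpc1b at 4.03 ± 0.596 in KO and 3.95 ± 0.730 in WT. In WT the ranges of Arpc2, Arpc5l and Arpc4 were separate from each other, while each neighbouring pair from Arpc4 downwards overlapped. The highest mean was 6.99 times the lowest in WT.

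The order differed with the length used. Per kilobase of the longest protein-coding transcript, a scale added after the data were seen, Arpc5l came first at 58.8 ± 3.98 CPM per kilobase in KO and 60.2 ± 3.01 in WT, ahead of Arpc2 at 39.0 ± 1.09 in KO and 39.1 ± 1.82 in WT and of Arpc3 at 27.8 ± 1.86 in KO and 29.6 ± 2.35 in WT. On that scale Actr3 at 13.2 ± 1.14 in KO and 13.2 ± 0.709 in WT stood above Actr3b at 6.43 ± 0.976 in KO and 9.33 ± 1.05 in WT. Actr3b held the 9th place in KO and the 8th in WT there.

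**Figure D3:**
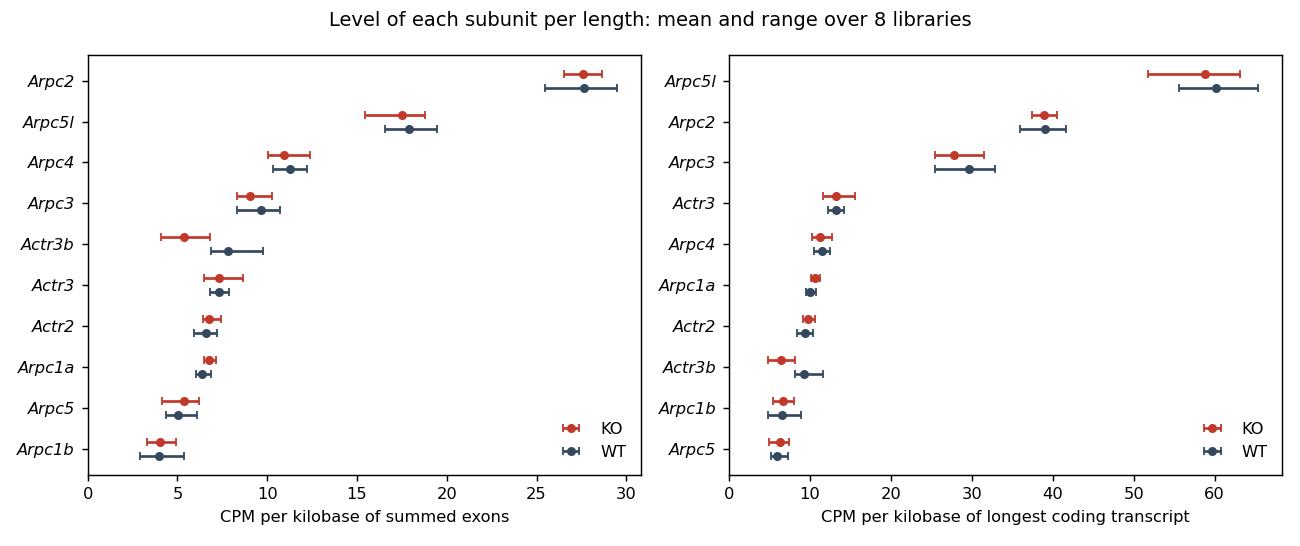
Level of each subunit in CPM per kilobase of summed exons (left) and per kilobase of the longest protein-coding transcript (right); points are means and bars run from the lowest to the highest of 8 libraries, KO above WT. Arpc2 leads on the left at 27.6 in both genotypes and Arpc5l on the right at 58.8 in KO and 60.2 in WT.

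The share of Actr3b in the ARP3 transcripts, Actr3b over Actr3b plus Actr3 per kilobase of exons, averaged 42.3% in KO (SD 4.26, n = 8) and 51.6% in WT (SD 2.23, n = 8). It ran from 35.7% to 47.9% in KO and from 48.8% to 55.4% in WT, so the ranges were separate, and no test is given because the share contains the value that chose the set. Per kilobase of the longest protein-coding transcript the shares were 32.7 ± 3.82% in KO and 41.4 ± 2.18% in WT, and without length scaling 27.8 ± 3.47% in KO and 35.9 ± 2.07% in WT. The sum of both ARP3 transcripts in KO was 84.0% of that in WT per kilobase of exons and 87.2% per kilobase of coding transcript.

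The other paralog pairs kept overlapping shares. Arpc1b made up 37.2 ± 3.37% of the Arpc1 pair in KO and 38.1 ± 3.99% in WT. Arpc5l made up 76.6 ± 3.66% of the Arpc5 pair in KO and 78.1 ± 2.58% in WT, or 90.2 ± 1.80% in KO and 90.9 ± 1.26% in WT per kilobase of coding transcript. Arpc5l stood above Arpc5 in both genotypes with and without length scaling. Arpc1a stood above Arpc1b per kilobase of exons and of coding transcript, but without length scaling the Arpc1b share was 54.1% in KO and 55.0% in WT. The order of the Arpc1 pair was thus the same with both lengths and reversed only without length scaling. The order of Actr3b and Actr3 in WT did change with the length, at an Actr3b share of 51.6% per kilobase of exons and 41.4% per kilobase of coding transcript. Which transcripts of each gene were expressed was not tested, so neither order is settled here.

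**Figure D4:**
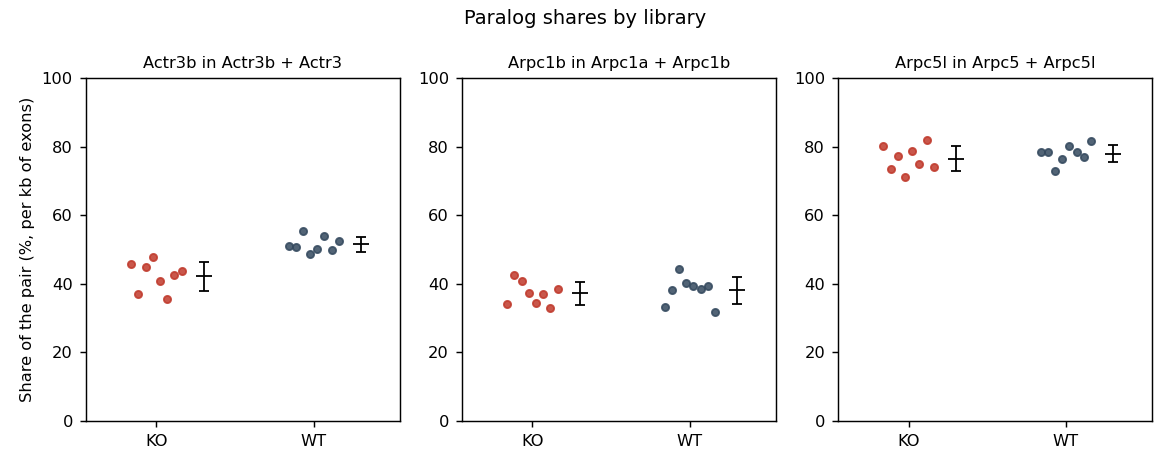
Share of 1 paralog in the sum of its pair (y axis, percent, per kilobase of exons) in each of 8 KO and 8 WT libraries, with mean and SD. The Actr3b share averages 42.3% in KO and 51.6% in WT with separate ranges, and the Arpc1b and Arpc5l shares overlap between genotypes.

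How the subunits vary together between libraries of a genotype was not used to choose the set, although the spread of Actr3b itself entered its p. In that variation 14 relations were tested, 7 within KO and 7 within WT, on log2(CPM + 0.5) by exact two-sided permutation over all pairings with Benjamini-Hochberg adjustment. Of these 0 passed at an adjusted p under 0.05, and 3 had an unadjusted p under 0.05. Within KO, Arpc5 and Arpc5l gave r = -0.83 (exact p = 0.0101, adjusted p = 0.0630, n = 8) and rho = -0.90 (exact p = 0.00456, adjusted p = 0.0639). Without KO libraries 1 and 7, which lay farthest out on Arpc5, r was -0.88. Within WT the same pair gave r = -0.66 (exact p = 0.0723, adjusted p = 0.253, n = 8) and rho = -0.33 (exact p = 0.428, adjusted p = 0.749), and r was -0.59 without WT libraries 3 and 5. KO library 7 had 9.36 CPM of Arpc5 beside 84.6 CPM of Arpc5l, and KO library 4 had 14.1 CPM beside 69.3 CPM.

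Arpc1b and the mean of the leukocyte markers gave r = 0.83 within KO (exact p = 0.0135, adjusted p = 0.0630, n = 8) and r = 0.79 within WT (exact p = 0.0135, adjusted p = 0.0630, n = 8), neither of which passed. The ranks gave rho = 0.74 within KO (exact p = 0.0458, adjusted p = 0.214) and rho = 0.76 within WT (exact p = 0.0368, adjusted p = 0.214). Leaving out the libraries farthest from the median of the marker score, r was 0.91 within KO and 0.62 within WT.

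For Actr3b, 0 of the 8 relations passed, and several changed sign or size when the 2 libraries farthest from the median of the other measure were left out. With Nampt, r was 0.55 within KO (exact p = 0.157, adjusted p = 0.329, n = 8) and -0.32 within WT (exact p = 0.443, adjusted p = 0.521, n = 8). The ranks gave rho = 0.50 within KO and -0.02 within WT (exact p = 0.216 and 0.977, adjusted p = 0.624 and 0.977). Without the 2 libraries r was 0.63 within KO and 0.59 within WT (exact p = 0.196 and adjusted p = 0.457 for both, n = 6 each). Within WT, where WT libraries 3 and 4 were left out, the sign changed between values that did not pass.

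Counts assigned to Esr1, the oestrogen receptor gene, averaged 768.6 CPM in KO, against 26.4 CPM in WT. Gene-level counts do not show which part of the gene the reads came from, and the cause of this difference was not tested. The r of Esr1 with Actr3b was -0.47 within KO (exact p = 0.236, adjusted p = 0.368, n = 8) and -0.34 within WT (exact p = 0.452, adjusted p = 0.521, n = 8). The ranks gave rho = -0.29 within KO and -0.21 within WT (exact p = 0.501 and 0.619, adjusted p = 0.779 and 0.846). Without the 2 libraries r was 0.38 within KO and 0.12 within WT (exact p = 0.458 and 0.826, adjusted p = 0.784 and 0.890, n = 6 each). The sign thus changed between values that did not pass, and that change was not tested.

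Actr3b and Actr3 gave r = -0.02 within KO and 0.54 within WT (exact p = 0.964 and 0.165, adjusted p = 0.964 and 0.329, n = 8 each), with rho = 0.07 within KO and 0.45 within WT (exact p = 0.882 and 0.267, adjusted p = 0.950 and 0.624). Without the 2 libraries r was 0.34 within KO and 0.21 within WT. Against the Schwann cell and nerve markers, r of Actr3b was -0.48 within KO and 0.56 within WT (exact p = 0.237 and 0.157, adjusted p = 0.368 and 0.329, n = 8 each), with rho = -0.45 within KO and 0.40 within WT (exact p = 0.267 and 0.327, adjusted p = 0.624 and 0.654). Without the 2 libraries r was -0.56 within KO and 0.21 within WT, where WT libraries 3 and 4 were left out. Arpc1a and Arpc1b gave r = 0.28 within KO and 0.32 within WT (exact p = 0.484 and 0.455, adjusted p = 0.521 for both, n = 8 each), with rho = 0.14 within KO and 0.19 within WT (exact p = 0.752 and 0.665, adjusted p = 0.877 and 0.846). Without the 2 libraries farthest out r was 0.09 within KO and 0.24 within WT.

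The genes whose pattern was most like that of Actr3b were looked for among 11391 named genes with a mean of at least 1 CPM, by Pearson correlation over 16 libraries after subtracting each genotype's mean. They were Ankrd16, an ankyrin-repeat gene, at r = 0.82, Ntrk2, the receptor for brain-derived neurotrophic factor, at 0.82, Vezt, an adherens-junction protein, at 0.81, Map2k1, the kinase MEK1, at 0.80, and Ubxn8, a UBX-domain gene, at 0.79. Their own log2 fold changes lay between -0.06 (Map2k1) and 0.16 (Ubxn8), with adjusted p of 0.598 or more (edgeR). Among the complex's own subunits, Arpc4 was nearest to Actr3b at r = 0.47, place 634 of the 11391, and Actr2 was at -0.58. These are the highest of many correlations that share libraries and depth, and they are a description.

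On chromosome 5 the tested genes nearest to Actr3b, 3 on each side, were not called, where only 0.0435% of all tested genes were. The differences of these neighbours were not tested against that of Actr3b. Kmt2c, 1700096K18Rik and Xrcc2 before it had log2 fold changes of 0.02, -0.14 and -0.16, and Dpp6, Paxip1 and Insig1 after it had -0.28, -0.01 and 0.01. Their standard errors ran up to 0.22, for the low-expressed Dpp6, and their adjusted p was 0.623 or more (edgeR).

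Genes of actin regulation and actin-related proteins were counted in 8 lists of 92 genes, of which 86 were tested. Not all of them work with the complex: the lists include nucleators of unbranched filaments and actin-related proteins outside the complex. Of these 86, 0 passed in edgeR, beside 0.0435% of all tested genes. Before adjustment 10 of the 86, or 11.6%, reached p under 0.05, 7 higher and 3 lower in KO, beside 9.57% of all tested genes. Their median log2 fold change was 0.04, and 93.0% had intervals inside a 1.5-fold change, beside 86.2% of all tested genes.

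Among nucleation-promoting factors and their WIP-family partners, 12 of 13 were tested with a median log2 fold change of 0.03. Wasf2, the WAVE2 activator, had 36.3 ± 2.81 in KO and 34.1 ± 1.73 CPM in WT (SD, n = 8 per genotype, log2 fold change 0.09), and Jmy, an activator that also nucleates filaments by itself, had 35.5 ± 3.37 in KO and 37.2 ± 6.15 CPM in WT (log2 fold change -0.07). All 8 genes of the WAVE regulatory complex, which holds WAVE inactive until it is signalled to, were tested with a median of 0.02. Cyfip1 and Nckap1 of that complex had log2 fold changes of -0.00 and -0.08. All 5 genes of the WASH complex, which drives ARP2/3 on endosomes, were tested with a median of 0.04, with Washc2 at 0.09 and Washc5 at 0.04.

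Of the inhibitors, debranching factors and coronins, 11 of 11 were tested. Their median log2 fold change was 0.09, 10 of 11 were above 0, and 3 (all higher in KO) had an unadjusted p under 0.05. Among all tested genes 51.8% were above 0 and 4.02% were higher in KO at that p. Coro6, a coronin, had 184.3 ± 18.9 in KO and 176.1 ± 15.8 CPM in WT, a log2 fold change of 0.07, and Pick1, a BAR-domain protein reported to inhibit ARP2/3, had one of 0.05. Coro2b, named after its values were seen, had 8.27 ± 0.588 in KO and 6.99 ± 0.697 CPM in WT, a log2 fold change of 0.24 (adjusted p = 0.228, edgeR). Endothelial markers, summed, reached 324.6 to 374.4 CPM in KO, against 290.8 to 341.5 CPM in WT, and pericyte and smooth muscle markers 345.2 to 408.3 CPM in KO, against 317.0 to 367.3 CPM in WT. Of these markers, 4 of 8 endothelial and 4 of 6 pericyte and smooth muscle genes reached p under 0.05 before adjustment, all higher in KO. Among all tested genes 4.02% were higher at that p. Of the markers 0 were at 0 in all libraries and 0 passed over all genes, beside 0.0435% of all tested genes. The part of these markers in the levels of the inhibitors, debranching factors and coronins was not tested.

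Of the formins and other nucleators of unbranched filaments, 17 of 20 were tested with a median of 0.03. Diaph1 had a log2 fold change of -0.11, and Lmod3, the leiomodin that nucleates thin filaments in muscle, one of -0.00. Fmnl1, a formin of blood cells named after its values were seen, had 10.1 ± 1.23 in KO and 8.04 ± 0.688 CPM in WT, a log2 fold change of 0.33 (adjusted p = 0.163, edgeR).

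Capping, severing and monomer-binding proteins, 21 of 21 tested, had a median log2 fold change of 0.01. Gsn, gelsolin, and Tmod1, the tropomodulin that caps thin filaments, had log2 fold changes of 0.04 and -0.07. Capza2, a subunit of the barbed-end capping protein named after its values were seen, had the lowest p of the 86 genes, with 201.9 ± 7.90 in KO and 226.1 ± 11.5 CPM in WT, a log2 fold change of -0.16 (adjusted p = 0.141, edgeR). Among the actins, 5 of 6 tested, Acta1, the skeletal muscle actin, had a log2 fold change of 0.02, and Actb, one of the cytoplasmic actins that ARP2/3 branches, one of 0.13 (edgeR, adjusted p = 0.404), with 322.6 ± 18.0 in KO and 295.3 ± 23.5 CPM in WT. Of the actin-related proteins outside the complex, 7 of 8 were tested with a median of 0.03, and Actr1a and Actr1b, the filament subunits of dynactin, had log2 fold changes of 0.01 and 0.06.

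**Figure D5:**
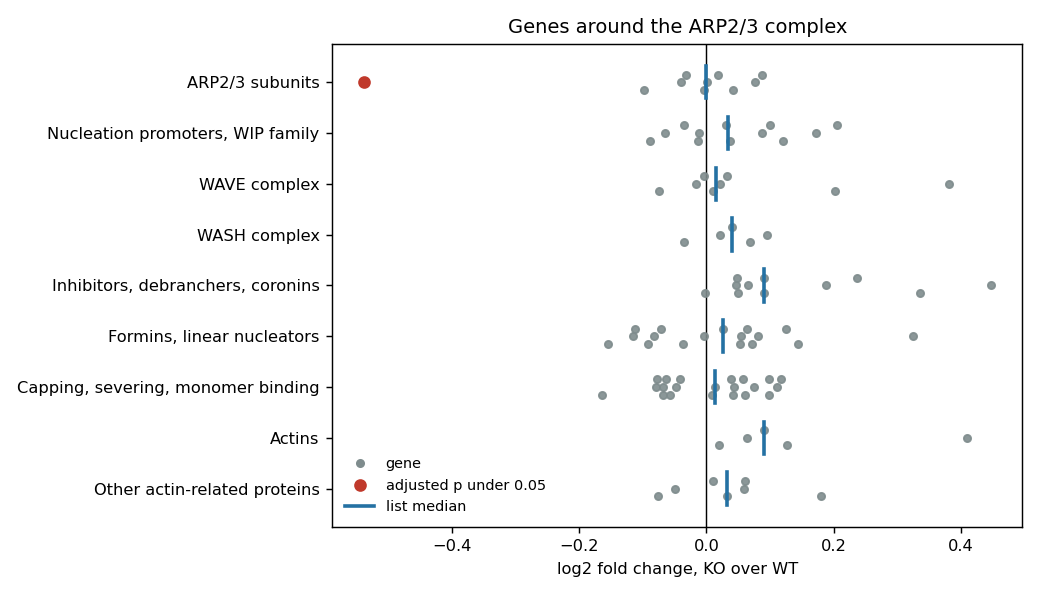
log2 fold change, KO over WT (x axis), of each tested gene in the ARP2/3 complex and in 8 lists of actin-related genes (rows), some of which act outside the complex. Blue lines are list medians and the red point is the 1 gene with an adjusted p under 0.05 (edgeR). That gene is Actr3b at -0.54, and the medians of the 8 lists lie between 0.01 and 0.09.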

How the data were processed

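The authors deposited gene-level estimated counts, made with bcl2fastq 4.0.3, STAR and Salmon on GRCm38, per the submitters' processing notes. The sources used here do not give the STAR and Salmon versions, the annotation release or the strand setting. RNA came from quadriceps, per the labels' protocols, and was read as 52-base pairs. Of the estimated counts 11.1% were not whole, and all were rounded. The number of table columns matching no library was 0.

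Genotypes came from the titles. KO was compared with WT in edgeR 4.0.16 (R 4.3.3), with the quasi-likelihood F test, TMM scaling, the default low-count filter, no covariate and Benjamini-Hochberg adjustment over 13792 genes at a threshold of 0.05. CPM use TMM-scaled totals. Standard errors are the log2 fold change divided by the root of F. Exon and transcript lengths, coordinates and sequences come from GENCODE M21, which matched 45143 of 45706 identifiers. Levels per length are CPM per kilobase. DESeq2 1.42.0 and limma 3.58.1 were alternatives. The fit and the relations were tested on simulated data. Between libraries of a genotype, chi-square per degree of freedom over genes with at least 20 counts was never under 8.09 in KO or 9.42 in WT, so no library was a copy of another.

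The subunits and lists were chosen with earlier results of these data known. Named genes are the 10 subunits, for each list its called members or the 2 with the highest mean CPM, the 3 tested neighbours of Actr3b on each side, the 5 genes most like it, Nampt, Esr1 and the genes beside the threshold. Others are said to be named after their values were seen. A list of genes that act upstream of the complex and a gene beside the threshold are not reported here.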

Additional observations from a re-analysis of the deposited data

Results flagged for a closer look

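Actr3 in KO library 2 stood apart from the other KO libraries, at 40.0 CPM with the next at 34.5 CPM and the lowest at 29.9 CPM. Its gap to the next library took up a share of 0.543 of the range of the 8 KO libraries, above Dixon's critical value for that many samples. Chance marks about 1 in 20 groups, and 1 of 30 groups examined was marked. KO library 2 has the lowest total of the series.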

How the results depend on the processing

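The number of genes called between KO and WT was 6. It was 2 with RLE size factors, library totals only, the replicate block, or without KO libraries 1, 3, 5 and 8. It was 3 without a low-count filter or with the carry-over covariate (the mean level of RNAs without a poly(A) tail), and 102 with DESeq2 (16 higher, 86 lower). Leaving out 1 library gave 2 to 8. The cause was not tested. The log2 fold change of Actr3b ran from -0.59 (without KO library 4) to -0.48 (without WT library 3) over the 27 alternatives, with adjusted p from 4.44e-05 (DESeq2) to 0.234 (edgeR). The other 9 subunits stayed between -0.12 and 0.14. Same-numbered KO and WT libraries had correlations of deviations from -0.11 to 0.26, and 2 of 8 KO libraries correlated best with their own number, so the numbers were not taken to pair samples; in the replicate block fit Actr3b was at -0.54 with an adjusted p of 0.0916. Without the 2 most distant libraries, r of Actr3b turned to 0.59 with Nampt within WT, to 0.38 and 0.12 with Esr1 within KO and WT, and to 0.34 with Actr3 within KO, a relation whose rho over all 8 KO libraries was 0.071 beside an r of -0.02. The lowest count of a subunit in a library was 194.0, so counting error is part of the spread between libraries.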
